A study of Mus musculus with 26 samples.

Results

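Interferon response genes are the genes that cells switch on when interferon, or viral nucleic acid, is sensed. Here 39 of them were taken by gene symbol from a list of sensors, transcription factors and antiviral effectors, out of 40481 genes in the mouse count tables. All 39 were in the spheroid and crypt tables. In the counts of the human line Caco-2 they were matched by 38 of 55093 genes, since OASL stands for both Oasl1 and Oasl2. A filter on low counts left 36 members to test in spheroids, 39 in crypts and 30 in Caco-2. Oas2, Ifitm1 and Ifi44 were too low in spheroids. ZBP1, OAS2, OASL, GBP3, RSAD2, IFI44, RTP4 and SAMD9L were too low in Caco-2. The member list did not use measured values, but it was drawn up with results of these data in view.

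The study asked what loss of Fgfr1op does to the stem cells of the gut. The gene encodes a centrosomal protein that anchors microtubules. Spheroids, which are hollow epithelial cultures of mouse small intestine, came from mice labelled Fgfr1op KO or wt (4 libraries each) and were measured at day 3 after hydroxytamoxifen (250 nM). Crypt-enriched preparations of small intestine came from Fgfr1op KO and wt mice (6 libraries each), taken at day 6 or day 9 after tamoxifen with 3 mice per genotype and day in the design. All mouse groups, wild type (WT) included, carry the label of the same drug and time as their KO group; the drug induces the gene ablation. The labels leave out the recombinase driver, strain, sex and age of the mice. Caco-2, a human colorectal adenocarcinoma line that resembles intestinal epithelium, carried a doxycycline-inducible hairpin against the gene (shFgfr1op) or a scramble hairpin, with 3 libraries each at day 3 after doxycycline. Columns of the crypt table name the genotype and a running number from 1 to 6 but not the day, so both days were pooled and no column was assigned a day.

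Interferons are secreted proteins that act through receptors at the cell surface. Type I and type III interferons activate the kinases Jak1 and Tyk2, and a complex that holds Stat2 and Irf9 then binds the interferon-stimulated response element. Interferon gamma acts through a receptor of its own and induces a partly different set that includes Irf1 and guanylate-binding proteins. In the intestinal epithelium type III interferon is the main antiviral signal, and bacterial products keep a low tone of the response in the healthy gut. The induced proteins sense viral RNA, degrade it, block its translation, hold back viral entry or release, or modify other proteins with ISG15.

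The core of that response element was searched in the promoters of the mouse members, because it is the sequence through which the response is known to act. RefSeq start sites (GRCm38.p6) with 250 bases before and 50 bases after the start were found for 30 members. The motif was TTTC, any 2 bases and TTTC again, on either strand, and overlapping matches were joined. It was present in 13 of these 30 genes, 43.3%, and in 1079 of 27025 genes of the whole table, 3.99%. The windows below belong to 5 members on which the results turn, 3 of which are in the IFIT and OAS families. Each is written 5′ to 3′ along the gene's own strand, ends before the start site, and has the motif in capitals.
Ifit1, chr19:34640755-34640843, strand +: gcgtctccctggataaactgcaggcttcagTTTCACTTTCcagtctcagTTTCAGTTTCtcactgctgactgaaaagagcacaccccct
Ifit3, chr19:34583343-34583446, strand +: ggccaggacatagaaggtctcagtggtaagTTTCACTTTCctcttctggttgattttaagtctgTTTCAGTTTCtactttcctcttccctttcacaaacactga
Oas3, chr5:120777695-120777764, strand -: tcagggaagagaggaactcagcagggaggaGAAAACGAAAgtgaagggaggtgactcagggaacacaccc
Isg15, chr4:156200845-156200926, strand -: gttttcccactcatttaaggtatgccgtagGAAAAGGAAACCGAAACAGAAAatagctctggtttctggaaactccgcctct
Rsad2, chr12:26456533-26456602, strand -: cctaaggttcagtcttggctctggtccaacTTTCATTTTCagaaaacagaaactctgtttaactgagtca
Ifit1 and Ifit3 held the motif at separate places, and in Isg15 overlapping copies made a longer run. The other genes with a match were Bst2, Ddx58, Gbp2, Gbp3, Ifih1, Ifitm3, Oas1a and Stat2. No match was found in 17 genes, among them Irf1, Irf7, Irf9, Cmpk2 and Herc6, which says only that these letters are not in this window. A match is a description of sequence and not a measured binding site.

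The members are spread over the genome, but 20 of 39 lie in 8 groups of neighbours with gaps of at most 1000000 bases (mm10). Ifit2, Ifit3 and Ifit1 lie together on chromosome 19 (34550694 to 34650009). Rsad2 and Cmpk2 lie side by side on chromosome 12 (26442746 to 26479837), read from opposite strands. Parp14, Dtx3l and Parp9 lie on chromosome 16 (35832874 to 35972605), where Dtx3l and Parp9 share 458 exon bases on opposite strands. The labels do not say whether reads were counted by strand, so reads in that overlap cannot be assigned to either gene. Members with near-identical copies, such as Ifit1, Ifit3, Oas1a, Gbp2, Gbp3 and the Ifitm genes, are uncertain in the same way, since the treatment of reads with several matches is not given either. Mx2 is annotated as a polymorphic pseudogene in the reference strain.

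Total counts per library ran from 37281821 to 103352863. Replicate pairs differed by more than sampling noise in each system, so every library was counted once. Levels are normalised counts, CPM on scaled library sizes, and fold changes and p-values come from edgeR's quasi-likelihood test with Benjamini-Hochberg adjustment over all genes tested in that comparison; a gene was called at an adjusted p below 0.05. Fgfr1op itself was at 15.0 to 19.8 CPM in spheroid KO and 21.7 to 24.4 CPM in WT in spheroids. In crypts it was at 21.1 ± 5.22 CPM in KO and 32.9 ± 6.27 CPM in WT over 6 libraries each, and the groups overlapped. FGFR1OP was at 6.43 to 7.26 CPM in shFgfr1op and 15.5 to 15.9 CPM in scramble. Its log2 fold change was -0.42 ± 0.095 in spheroids (adjusted p = 0.117, not called), -0.65 ± 0.19 in crypts (0.0261) and -1.20 ± 0.094 in Caco-2 (1.65e-14). The epithelial markers Epcam, Cdh1, Vil1, Krt8 and Krt18 were at 249.8 CPM or more in every library. Cdx2 was at 263 to 313 CPM in KO spheroids but 20.1 to 64.4 CPM in KO crypts and 24.7 to 36.9 CPM in WT crypts. In spheroids Krt20, Lgr5, Muc2, Lyz1 and Alpi had group means of 9.56 to 33.7 CPM. Olfm4 had means of 2.61 CPM in KO and 1.68 CPM in WT spheroids. KRT20, OLFM4 and MUC2 stayed below 1 CPM in Caco-2. These are bulk samples, so fewer cells of a type and less RNA per cell cannot be told apart.

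**Figure D1:**
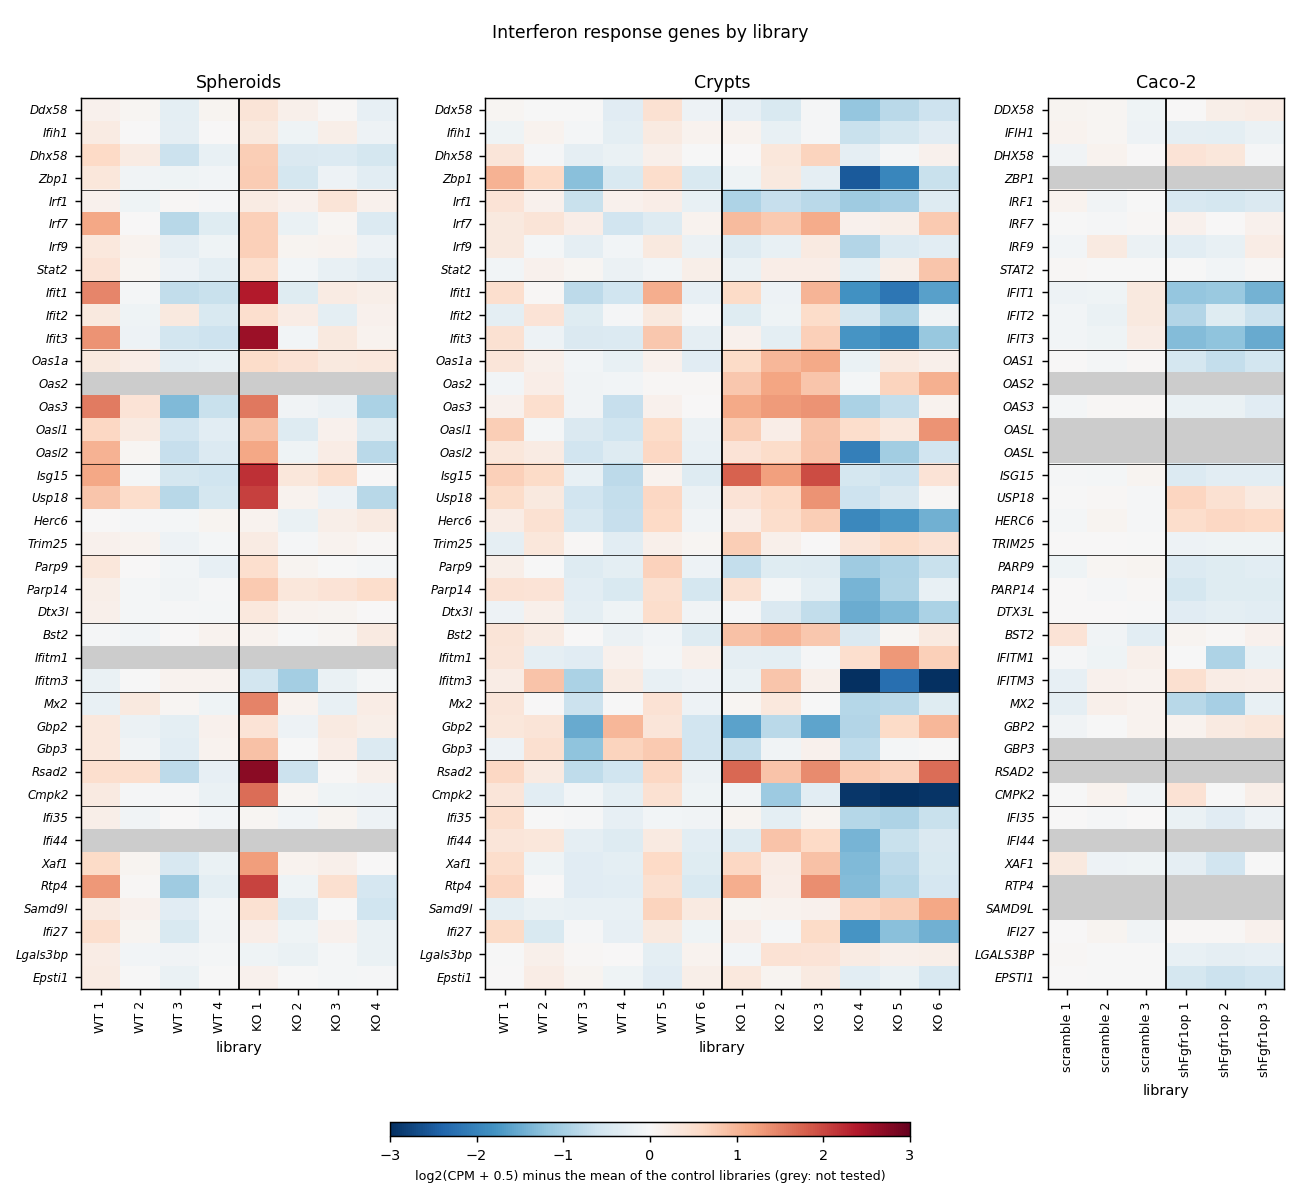
Each row is a member and each column a library of spheroids, crypts or Caco-2. Colour is log2(CPM + 0.5) minus the mean of the WT or scramble libraries, cut at 3 in either direction, and grey marks members that were not tested. In crypts most rows of KO columns 4 to 6 are blue, and in spheroids WT 1 and KO 1 are the reddest columns.

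Freshly isolated WT crypts carried far more of this programme than WT spheroids in culture. Of 39 members, 31 were higher in crypts, 3 lower and 5 did not pass, and the median log2 difference was 2.26. Over all 18485 genes tested jointly, 81.7% were called, 43.9% higher and 37.8% lower, with a median of 0.22. This comparison sets freshly isolated tissue against culture and joins tables that were counted separately, so preparation, culture and table cannot be told apart. Levels in this part are CPM on the joined scale, with SD over 6 crypt and 4 spheroid libraries.

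The sensors were all higher in crypts. Zbp1, a sensor of Z-form nucleic acid, was at 20.5 ± 11.3 CPM in crypts and 0.331 ± 0.116 CPM in spheroids, a log2 difference of 5.97 ± 0.76 (edgeR adjusted p = 6.78e-07). Ddx58 (RIG-I), Ifih1 (MDA5) and Dhx58 (LGP2), helicases that detect viral RNA, were higher by 1.13, 1.53 and 2.05 on the log2 scale. These 3 lay below the median of the members. Among transcription factors, Irf1 was at 304 ± 69.9 CPM in crypts and 31.6 ± 2.30 CPM in spheroids (3.27 ± 0.19, edgeR adjusted p = 2.26e-12). Irf7 and Irf9 were higher by 2.46 and 2.20. Stat2, the partner of Irf9 in the response complex, did not pass (0.17 ± 0.20, adjusted p = 0.434).

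Effectors differed more from each other. Ifit1, which binds viral RNA that lacks host cap methylation, was at 30.4 ± 16.4 CPM in crypts and 1.41 ± 1.47 CPM in spheroids (4.46 ± 0.92, edgeR adjusted p = 2.17e-04), whereas its neighbour Ifit2 was at 3.23 ± 0.823 and 3.47 ± 0.904 CPM and did not pass. Usp18, the protease that removes ISG15 and restrains receptor signalling, was higher by 4.82 ± 0.87, and Isg15 itself by 3.11 ± 0.67. The guanylate-binding proteins Gbp2 and Gbp3 were higher by 4.63 and 4.47. Cmpk2, a mitochondrial nucleotide kinase, was higher by 3.27 ± 0.68, but its neighbour Rsad2 (viperin), which makes a chain-terminating nucleotide, was at 1.66 ± 0.878 and 1.60 ± 0.781 CPM and did not pass. Oasl1 (0.59 ± 0.32, adjusted p = 0.0925) and Ifitm3 (1.21 ± 0.63, 0.0848) did not pass either. Thus members of the same cluster on the chromosome did not all pass.

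The 3 members lower in crypts were Bst2 (tetherin), which holds budding virus at the cell surface, the ubiquitin ligase Trim25, which acts on RIG-I, and Samd9l, an inhibitor of translation. Bst2 was at 9.13 ± 1.81 CPM in crypts and 28.6 ± 1.82 CPM in spheroids (-1.64 ± 0.22, edgeR adjusted p = 7.84e-07). Trim25 was at 41.5 ± 7.71 and 102 ± 8.60 CPM (-1.29 ± 0.14), and Samd9l at 26.8 ± 8.32 and 46.5 ± 7.84 CPM (-0.79 ± 0.24). Per kilobase of exon, the highest members in WT crypts were Lgals3bp, a secreted scavenger-receptor protein, at 168 ± 17.6 CPM per kb and the membrane protein Ifitm3, which blocks fusion of virus in endosomes, at 163 ± 65.9 CPM per kb. These levels did not differ beyond their spread. Irf1 followed at 76.5 ± 17.6 and Ifi35 at 55.1 ± 10.5 CPM per kb. In WT spheroids Lgals3bp (99.0 ± 9.67) and Ifitm3 (70.4 ± 7.31) were again highest per kb, and Bst2 came next at 31.6 ± 2.01, above its 10.1 ± 2.01 in crypts.

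Of the 14 immune markers in the table, 12 were called higher in WT crypts and 2 lower, the macrophage markers Cd68 and Csf1r. Their summed level was 20.6 to 47.3 CPM in spheroid libraries and 80.0 to 179 CPM in crypt libraries of either genotype. In spheroids Cd3g, Gzma and Gzmb were at 0 in every library. The immune markers Ptprc and Itgax were at most 0.0390 and 0.0494 CPM there. Cd68 made up most of the sum at 25.5 ± 10.2 CPM in the 4 KO and 24.1 ± 10.3 CPM in the 4 WT libraries. Whether Cd68 in spheroids came from macrophages was not tested. In WT crypts, on the scale of their own table, Cd68 was at 1.48 ± 0.282 CPM and Csf1r at 0.881 ± 0.579 CPM, against 5.65 ± 1.25 CPM of Csf1r in WT spheroids. The T cell markers Gzma and Cd3e were at 21.9 to 46.0 CPM with a median of 34.4 and 4.47 to 11.0 CPM with a median of 8.23 in WT crypts. The part of immune cells in the higher member levels of crypts was not tested. The count of members higher in crypts was 29 to 32 when any 1 library was left out. Oas2 lost its call in 7 of these 20 fits and Oas3 without spheroid WT 3 (adjusted p = 0.0674) or WT 4 (0.0736).

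**Figure D2:**
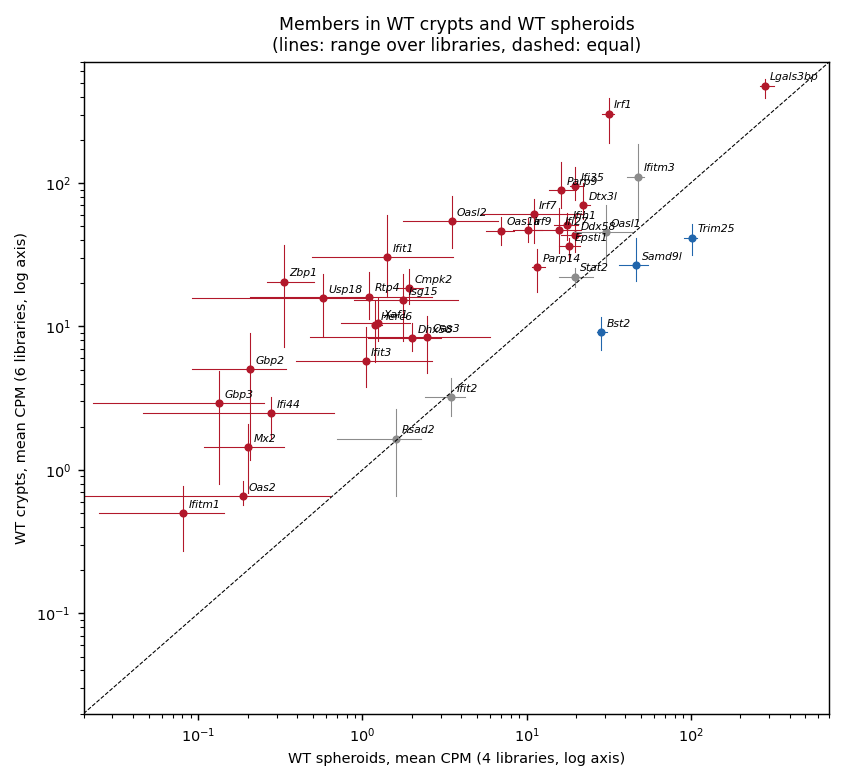
Mean CPM of each member in WT crypts (vertical, 6 libraries) against WT spheroids (horizontal, 4 libraries), both on log axes, with lines for the range over libraries and a dashed line of equality. A line that reaches the left edge includes a library at 0. Of 39 members, 31 are red (higher in crypts), 3 blue (Trim25, Samd9l and Bst2, lower in crypts) and 5 grey (not passed).

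In spheroids none of the members passed the test between KO and WT. Of 36 members tested, edgeR called 0, where 0.189% of all 15915 genes tested were called higher and 0.0440% lower. The median log2 fold change was 0.13 against 0.00 over all genes, with 28 members above 0 and 8 below. An unadjusted p below 0.05 was found for 3 members, against 14.6% of all genes. DESeq2 and limma voom each called 1 member, Parp14.

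Parp14, an ADP-ribosyltransferase linked to interferon responses, was at 25.4, 18.5, 19.6 and 21.4 CPM in KO libraries 1 to 4 and 16.5, 14.0, 13.6 and 14.2 CPM in WT. All KO libraries lay above all WT libraries, which was so for 8.56% of all genes in either direction. Its log2 fold change was 0.54 ± 0.11 (edgeR adjusted p = 0.0951; 0.00162 in DESeq2 and 0.0467 in voom). Oas1a, which makes the 2-5A signal that activates RNase L, was at 13.0, 11.8, 10.7 and 10.9 CPM in KO and 10.7, 10.0, 7.10 and 7.35 CPM in WT. These groups did not overlap either, though KO 3 and WT 1 were close (0.40 ± 0.15, edgeR adjusted p = 0.268). Irf1 was at 47.3, 43.3, 52.0 and 43.4 CPM in KO and 43.6, 36.3, 40.8 and 38.6 CPM in WT, with WT 1 inside the KO range (0.22 ± 0.083, edgeR adjusted p = 0.266).

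For the strongly inducible members the spread inside each group was the main feature. Ifit1 was at 9.11, 0.950, 1.70 and 1.60 CPM in KO libraries 1 to 4 and 4.58, 1.29, 0.616 and 0.661 CPM in WT libraries 1 to 4. Isg15 was at 10.4, 2.55, 3.00 and 1.95 CPM in KO and 4.86, 1.84, 1.19 and 1.11 CPM in WT, and Rsad2 at 15.0, 0.997, 1.90 and 2.10 and 2.86, 2.87, 0.874 and 1.49 CPM. KO 1 was the highest library for each of them. Of 36 members, 34 were above their mean over the 8 libraries in KO 1 and 32 in WT 1, while only 3 were in WT 3 and 7 in WT 4. Without KO 1 the median log2 fold change of the members was -0.07, without WT 1 it was 0.33, and without both it was 0.11; no member was called in any of these fits. Ifitm3 went the other way, at 40.4, 29.2, 52.0 and 57.9 CPM in KO and 52.3, 59.8, 63.9 and 64.3 CPM in WT (-0.42 ± 0.19, edgeR adjusted p = 0.348), and KO 1 and KO 2 were its lowest libraries. Cd68 was also highest in KO 1, at 39.8, 20.1, 16.7 and 25.4 CPM in KO and 20.4, 38.9, 15.3 and 21.7 CPM in WT. The other immune markers tested in spheroids, Csf1r and Itgam, were below every WT library in KO 1. Csf1r was at 3.64 CPM in KO 1 and 4.26 to 7.29 CPM in WT. Itgam was at 0.774 CPM in KO 1 and 0.799 to 1.82 CPM in WT. The part of immune cells in these values was not tested.

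Genes that produce or relay the interferon signal were taken from lists of 68 other pathway genes. Of these, 0 of the 57 tested in spheroids were called by edgeR. An unadjusted p below 0.05 was found for 13 of the 57, against 14.6% of all genes. The interferon genes Ifnb1, Ifna4, Ifng, Ifnl2 and Ifnl3 had no count in any spheroid library. Of the receptors, Ifnar1 was at 61.2 ± 2.15 CPM in the 4 KO and 55.0 ± 1.46 CPM in the 4 WT libraries. Of 31 other interferon-stimulated genes tested, the smallest p was for Slfn2, a regulator of quiescence in immune cells, at 17.2, 11.4, 10.1 and 10.4 CPM in KO and 6.34, 6.98, 6.27 and 6.81 CPM in WT (0.90 ± 0.17, edgeR adjusted p = 0.0749). Tor3a had 0.32 ± 0.10 (0.177).

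**Figure D3:**
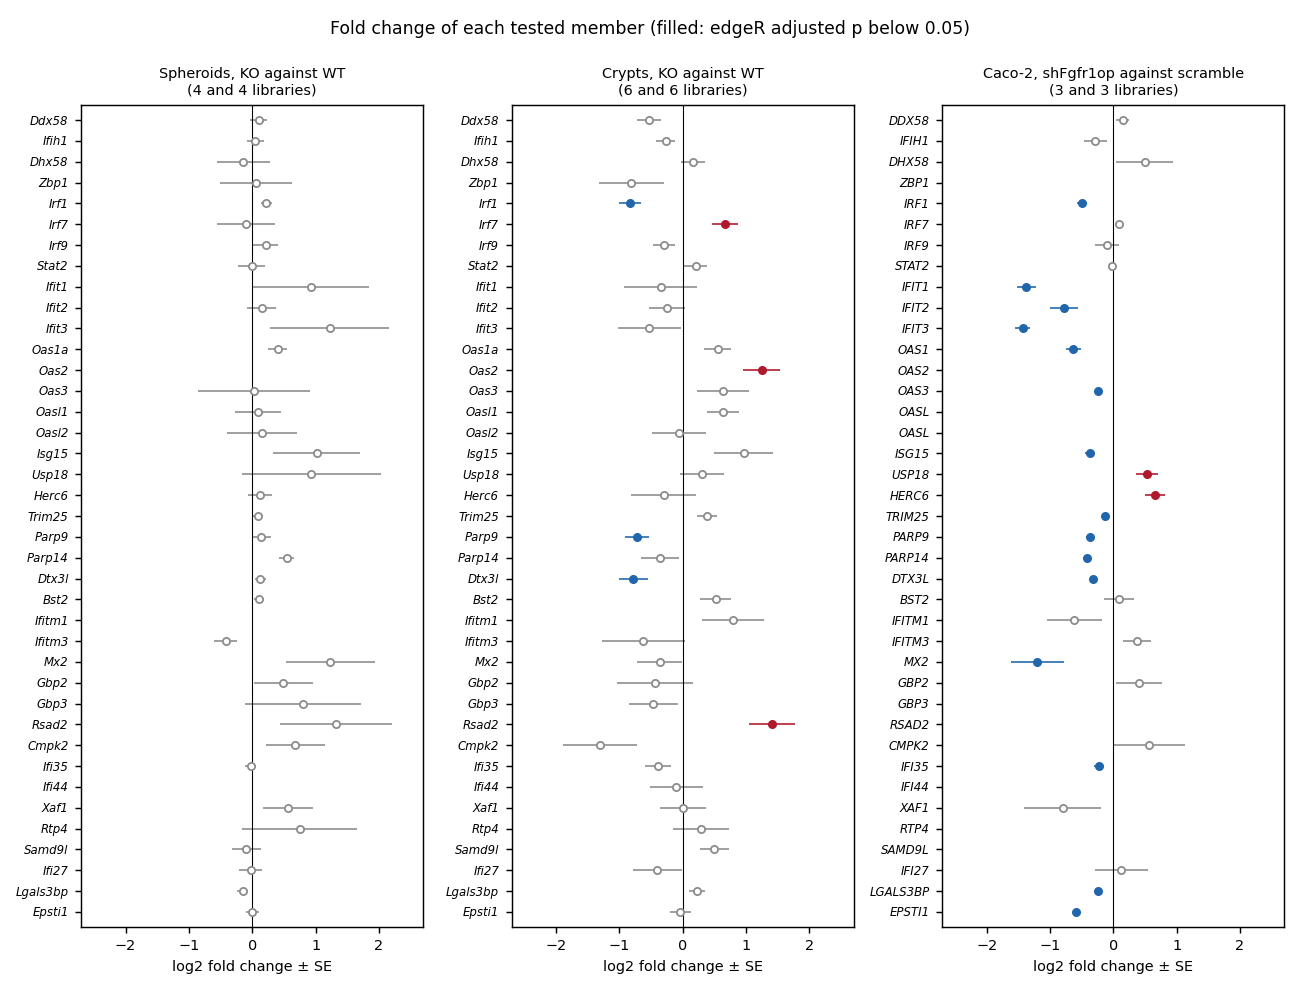
Log2 fold change with its standard error for each tested member in spheroids, crypts and Caco-2, ordered by role. Filled points passed an edgeR adjusted p below 0.05, red where higher and blue where lower: none in spheroids, 3 and 3 in crypts, and 2 and 15 in Caco-2.

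In crypts of KO mice few members were called, and these went in both directions. With all columns together, 3 of 39 were higher, 3 lower and 33 did not pass. Of all 16413 genes tested, 24.5% were called, 14.0% higher and 10.5% lower. In each direction the share of members called was below that of all genes. DESeq2 called 5 lower. Limma voom called 15 members, 12 of them lower, and shared 4 of the 6 calls of edgeR with the same direction. Shares of all genes called are given for edgeR only, so the counts of DESeq2 and voom have none beside them. An unadjusted p below 0.05 was found for 12 members, against 38.1% of all genes. The median log2 fold change of the members was -0.10, and that of all genes 0.05. Higher were Oas2, Rsad2 and Irf7, and lower were Irf1, Parp9 and Dtx3l.

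Among transcription factors the 2 calls went in opposite directions. Irf1, which is induced by interferon gamma and drives antiviral and antigen presentation genes, ran from 122 to 194 CPM with a median of 141 in KO and from 161 to 341 CPM with a median of 279 in WT. Only WT column 3 fell inside the KO range. Its log2 fold change was -0.83 ± 0.18 (edgeR adjusted p = 0.00602), and it passed in all 12 fits without 1 column. Irf7, the factor that amplifies type I interferon, ran from 55.2 to 109.9 CPM with a median of 88.1 in KO and from 33.9 to 67.1 CPM with a median of 56.2 in WT (0.66 ± 0.21, edgeR adjusted p = 0.0339). This call was lost in 9 of 12 fits without 1 column, with adjusted p up to 0.101 without WT column 5. It was also lost in voom (0.107) and with no filter on low counts (0.0547). Irf9 (-0.30 ± 0.18) and Stat2 (0.20 ± 0.18) did not pass.

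Rsad2 and Oas2 were low in level and higher in KO. Rsad2 ran from 2.41 to 5.42 CPM with a median of 3.52 in KO and from 0.556 to 2.28 CPM with a median of 1.39 in WT, without overlap, which was so for 10.6% of all genes. Its log2 fold change was 1.41 ± 0.37 (edgeR adjusted p = 0.0150). Oas2 ran from 0.519 to 1.90 CPM with a median of 1.37 in KO and from 0.491 to 0.725 CPM with a median of 0.543 in WT, and KO column 4 was the only KO library in the WT range (1.25 ± 0.29, edgeR adjusted p = 0.00871). Both passed in all 12 fits without 1 column, but Oas2 did not pass in limma voom (adjusted p = 0.0522). Cmpk2, the neighbour of Rsad2, lay on the other side: its KO columns ran from 1.32 to 14.4 CPM with a median of 4.34 and its WT columns from 12.4 to 21.4 CPM with a median of 14.3 (-1.31 ± 0.58, edgeR adjusted p = 0.118, not passed).

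Parp9 and Dtx3l, which form a complex of an ADP-ribosyltransferase and a ubiquitin ligase, were both lower. Parp9 ran from 35.0 to 57.2 CPM with a median of 45.6 in KO and from 56.3 to 120.5 CPM with a median of 70.0 in WT (-0.72 ± 0.19, edgeR adjusted p = 0.0157). Dtx3l ran from 20.7 to 57.3 CPM with a median of 32.6 in KO and from 47.9 to 84.8 CPM with a median of 54.5 in WT (-0.78 ± 0.23, edgeR adjusted p = 0.0269). In Parp9 the groups overlapped at their edges, and in Dtx3l KO column 1 lay above 4 of the 6 WT columns. Dtx3l lost its call without KO column 4, 5 or 6 or WT column 5 (adjusted p 0.0550, 0.0574, 0.0599 and 0.0580), and the number of lower members was 5 without KO column 1 or 3. Parp14, on the same stretch of the chromosome, did not pass (-0.36 ± 0.30). The RNA sensors Ddx58 (-0.54 ± 0.19, adjusted p = 0.0501), Ifih1 (-0.27 ± 0.15) and Zbp1 (-0.81 ± 0.52) did not pass in edgeR, nor did Oas1a (0.55 ± 0.22, 0.0766), Oasl1 (0.63 ± 0.25, 0.0835) and Isg15 (0.96 ± 0.46, 0.147).

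The KO columns themselves fell into a high and a low set for many members. The running numbers in the column names were used to look at this after the values had been seen: columns 1 to 3 and columns 4 to 6 of each genotype were compared apart. They are not assigned to a day. These fits use the same libraries as the pooled one and are no independent evidence. Since the division was chosen from the values of these members, their p-values in these fits describe the split and do not test it. A further number in the column names gave a second division that differs only in placing WT column 3 with the higher set, and it is given beside the first.

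In columns 1 to 3, edgeR called 0 of 39 members, where 0.302% of all genes were called higher and 0.375% lower. The median log2 fold change was 0.22. An unadjusted p below 0.05 was found for 11 members, and the share of all genes at that level was not counted for these columns. In columns 4 to 6, 3 members were higher (20.0% of all genes) and 16 lower (21.4%), where 41.3% of all genes were called, and the median was -0.70 against 0.01 over all genes. By the second division the counts were 0 and 0 in the lower set, where 0.0809% of all genes were called higher and 0.0751% lower. They were 4 higher and 16 lower in the higher set, where 41.1% of all genes were called, 19.8% higher and 21.3% lower. The difference between the KO effects of columns 4 to 6 and 1 to 3 was fitted as an interaction. In it 10 members had a lower effect in columns 4 to 6 and 0 a higher one. Of all genes, 9.06% were called, 5.46% lower and 3.60% higher. These 10 were Ifit1, Ifit3, Oas3, Oasl2, Herc6, Dtx3l, Ifitm3, Cmpk2, Rtp4 and Ifi27.

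Ifitm3, which blocks viral entry, fell in KO columns 4 to 6. It was at 77.0, 159 and 98.4 CPM in KO columns 1 to 3 and 9.38, 18.3 and 10.7 CPM in KO columns 4 to 6, while WT columns held 104, 162 and 45.9 and then 105, 75.7 and 80.4 CPM. Every KO column from 4 to 6 lay below every WT column, and the share of all genes for which this holds was not counted. The log2 fold change was 0.10 ± 0.41 in columns 1 to 3 and -2.80 ± 0.27 in columns 4 to 6 (edgeR adjusted p = 0.941 and 6.87e-05), and their difference was -2.87 ± 0.59 (0.00930). Ifitm1, its neighbour on chromosome 7, was among the 3 higher in columns 4 to 6, at 0.805, 1.78 and 1.00 CPM in KO and 0.501, 0.381 and 0.525 CPM in WT (1.29 ± 0.41, adjusted p = 0.0285).

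Cmpk2 had the smallest p of these 10. It was at 14.4, 7.05 and 12.4 CPM in KO columns 1 to 3 and 1.64, 1.32 and 1.59 CPM in KO columns 4 to 6. The WT columns stayed at 20.2, 12.4 and 14.6 and then 12.6, 21.4 and 14.1 CPM. In columns 4 to 6 its log2 fold change was -3.43 ± 0.25 (edgeR adjusted p = 7.55e-06), and the difference from columns 1 to 3 was -2.91 ± 0.41 (3.24e-04). Rsad2 did not follow it. The Rsad2 KO columns held 5.42, 2.77 and 4.27 and then 2.57, 2.41 and 5.23 CPM, and the KO effect was 1.46 ± 0.46 and 1.32 ± 0.47 in the respective ranges, with a difference of -0.11 ± 0.72 (edgeR adjusted p = 0.955).

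Ifit1 and Ifit3 were lower in KO columns 4 to 6, and Ifit2 did not pass. Ifit1 was at 35.3, 21.3 and 48.3 CPM in KO columns 1 to 3 and 6.34, 4.87 and 7.33 CPM in KO columns 4 to 6, and at 33.5, 24.2 and 13.5 and 15.4, 50.9 and 19.9 CPM in the WT columns. Its KO effect was 0.56 ± 0.35 in columns 1 to 3 and -2.24 ± 0.46 in columns 4 to 6 (difference -2.76 ± 0.65, edgeR adjusted p = 0.0190). Ifit3 gave 0.25 ± 0.36 and -2.07 ± 0.43 (difference -2.29 ± 0.59, 0.0230). Ifit2, whose promoter window has no match to the motif printed in capitals for Ifit1 and Ifit3, gave 0.12 ± 0.37 and -0.72 ± 0.31, and neither the effect in columns 4 to 6 nor the difference (-0.80 ± 0.51, 0.373) passed. Of the 13 genes with the motif, 5 were lower and 1 higher in columns 4 to 6; of the 17 without it, 7 were lower and 2 higher.

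Oas3 and Isg15 were above WT in KO columns 1 to 3 in every library, though neither passed there. The share of all genes without overlap in these columns was not counted. Oas3, the longest of the 2-5A synthetases, was at 16.0, 17.8 and 18.7 CPM in KO columns 1 to 3 against 7.76, 10.2 and 6.53 CPM in WT, and at 3.39, 4.08 and 7.58 against 4.17, 7.74 and 7.05 CPM in columns 4 to 6. The effects were 1.10 ± 0.26 (edgeR adjusted p = 0.0990) and -0.36 ± 0.34 (0.439), and the difference was -1.43 ± 0.43 (0.0495). Isg15 was at 43.0, 29.3 and 48.8 CPM in KO columns 1 to 3 against 20.4, 18.4 and 10.4 CPM in WT, without overlap (1.29 ± 0.30, 0.0820), and at 8.36, 7.81 and 16.4 against 6.95, 13.2 and 9.32 CPM in columns 4 to 6 (0.12 ± 0.33). Its difference of -1.14 ± 0.47 did not pass (0.158). Herc6, the ligase that attaches ISG15 in mice, was at 9.60, 12.2 and 14.3 CPM in KO columns 1 to 3 and 1.82, 2.15 and 2.76 CPM in columns 4 to 6, with WT at 9.75, 11.6 and 5.87 and 5.01, 12.9 and 7.69 CPM (difference -2.33 ± 0.47, 0.00510). The differences of Oasl2 (-1.77 ± 0.52, 0.0492), Rtp4 (-1.69 ± 0.50, 0.0497), Dtx3l (-1.08 ± 0.32, 0.0468) and Oas3 passed narrowly, and that of Ifi27, a mitochondrial protein, was -1.68 ± 0.37 (0.00899).

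Irf1 and Irf7 had nearly the same KO effect in both column ranges. Irf1 was at 135, 159 and 146 CPM in KO columns 1 to 3 and 122, 127 and 194 CPM in columns 4 to 6, with effects of -0.83 ± 0.26 and -0.87 ± 0.20. The difference was 0.00 ± 0.35. Irf7 gave 0.66 ± 0.20 and 0.63 ± 0.24 (difference 0.00 ± 0.31). With the column range as a covariate, 5 members were higher (14.4% of all genes) and 6 lower (14.3%), and the 6 members called in the pooled fit were all among them with the same direction.

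Cell type markers also moved with the column range. The summed level of 14 immune markers was 80.0 to 89.6 CPM in KO columns 1 to 3 and 95.7 to 140 CPM in KO columns 4 to 6, with 89.1 to 157 and 130 to 179 CPM in the WT columns. The 9 markers of stroma and endothelium summed to 4.73 to 8.86 CPM in KO columns 1 to 3, 11.5 to 65.3 CPM in KO columns 4 to 6, and 4.66 to 43.6 CPM in WT. The 12 epithelial markers summed to 17434 to 21161 CPM in KO columns 1 to 3 and 15250 to 16819 CPM in KO columns 4 to 6. In WT they summed to 17566 to 24827 CPM. Lyz1, a large part of this sum, was at 6997, 8183 and 10054 CPM in KO columns 1 to 3. In KO columns 4 to 6 Lyz1 was at 2479, 3586 and 2332 CPM. Krt8 went the other way, at 3574, 3411 and 3300 and then 5972, 6399 and 5733 CPM in KO. Within that list, the stem cell gene Olfm4 was at 428, 914 and 808 CPM in KO columns 1 to 3 and 22.4, 17.0 and 8.37 CPM in KO columns 4 to 6, against 817 to 1998 CPM with a median of 1354 in WT. The keratin Krt18 was at 601, 712 and 684 and then 1716, 2161 and 1590 CPM in KO, against 249.8 to 427 CPM with a median of 392 in WT. The macrophage marker Cd68 was at 4.26, 10.1 and 6.46 CPM in KO columns 4 to 6 and at most 1.89 CPM in WT (1.54 ± 0.45 over all columns, edgeR adjusted p = 0.0248). The myeloid marker Itgam was lower, at 10.3, 11.1 and 11.8 CPM in KO columns 4 to 6, against 20.2 to 46.0 CPM with a median of 31.1 in WT (-1.11 ± 0.25, 0.00754). The other 12 immune markers did not pass over all columns. Among them Gzma had -0.74 ± 0.32, Cd3e -0.65 ± 0.29 and Cd3g -0.71 ± 0.26. Csf1r (1.32 ± 0.56), Cd79a (1.30 ± 0.90) and Itgax (0.90 ± 0.60) lay on the other side. Of all 14 immune markers, 7 were above 0 and 7 below. The part of cell composition in the member values was not tested.

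**Figure D4:**
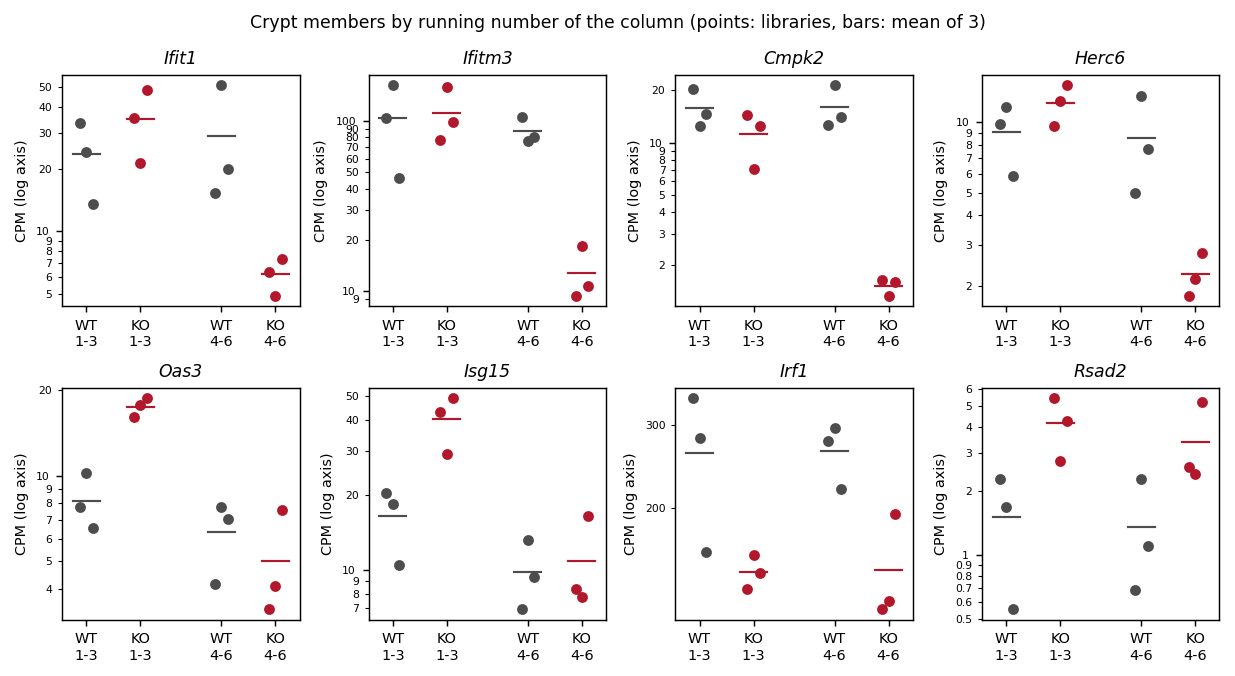
CPM on log axes of 8 members in crypt libraries, by genotype and by running number of the column (1 to 3 or 4 to 6), with a bar at the mean of 3. For Ifit1, Ifitm3, Cmpk2 and Herc6 the KO columns 4 to 6 lie below every other column; for Irf1 both KO sets lie low, and for Rsad2 both lie high.

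Other genes of the pathway in crypts moved in both directions. With all columns together, 7 of the 59 tested were higher and 13 lower, against 14.0% and 10.5% of all genes. Interferon transcripts were close to the detection limit, with Ifng at 0.0401 ± 0.0485 CPM in KO and 0.0243 ± 0.0274 CPM in WT, and none was tested. Of 6 receptor genes, Ifngr1, a chain of the interferon gamma receptor, was higher, at 267 to 571 CPM with a median of 386 in KO and 239 to 263 CPM with a median of 251 in WT (0.68 ± 0.18, edgeR adjusted p = 0.0167). None of 6 kinases, STATs and feedback genes passed. Of 13 sensors, adaptors and inducers, 4 were higher and 4 lower. The kinase Ikbke, which activates Irf3, had -0.68 ± 0.12 (edgeR adjusted p = 0.00299), the RNA receptor Tlr3 -0.59 ± 0.14, the adaptor Mavs -0.63 ± 0.16, the adaptor Traf3 0.75 ± 0.17 and Tmem173, which encodes the adaptor STING, 1.17 ± 0.28.

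Of 34 other interferon-stimulated genes tested in crypts, 2 were higher and 9 lower, again against 14.0% and 10.5% of all genes. Most of the 4 lower genes with the smallest p encode immunity-related GTPases, which interferon gamma induces. Irgm1 ran from 34.8 to 67.5 CPM with a median of 46.9 in KO and from 76.3 to 115 CPM with a median of 102 in WT, without overlap (-0.98 ± 0.18, edgeR adjusted p = 0.00367). Ifi47 ran from 9.57 to 25.2 CPM with a median of 20.5 in KO and from 27.4 to 64.3 CPM with a median of 55.7 in WT, again without overlap (-1.41 ± 0.28, 0.00491). Irgm2 had -1.52 ± 0.40 (0.0170) and the immunoproteasome subunit Psmb9 -1.78 ± 0.47 (0.0179). The higher ones were the exonuclease Isg20 (1.35 ± 0.36, 0.0164) and Tor3a (0.80 ± 0.21, 0.0165).

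The KO effect on Irf1 differed between crypts and spheroids. The crypt effect minus the spheroid effect was -1.10 ± 0.23 on the log2 scale (edgeR adjusted p = 0.0191), with the KO below WT in crypts and no call in spheroids. Irf1 was the only member called, 0 being higher and 1 lower, where 1.76% and 1.10% of all genes were called, and it passed in all 20 fits without 1 library. The median over the members was -0.42, and it ranged from -0.67 without spheroid WT 1 to -0.06 without spheroid KO 1. Parp9 (-0.91 ± 0.28, adjusted p = 0.0728) and Dtx3l (-0.96 ± 0.31, 0.0901) did not pass in edgeR and did in DESeq2 (0.0331 and 0.0397). The count of lower members was 3 without crypt KO column 1 and 2 without KO column 2 or 3. This comparison and that of WT crypts with WT spheroids share their WT libraries.

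Knock-down of FGFR1OP in Caco-2 went with lower levels of many members. Of 30 tested, 15 were lower, 2 higher and 13 did not pass, where 16.2% of all 18905 genes tested were called lower and 15.7% higher. The median log2 fold change was -0.25 against -0.01 over all genes. Differences were small: 3 of the 15 were lower by at least 1 on the log2 scale. Libraries of a group were close to each other, and 42.4% of all genes had groups that did not overlap. No label says that the libraries of a group came from separate cultures, so p-values measure the spread between these libraries only, which may be technical. The 15 immune markers summed to 7.03 to 10.5 CPM over all 6 libraries, with TRDC, GZMA and CD68 at 0 in every library.

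All 3 IFIT genes were lower. IFIT3 was at 4.70, 5.07 and 4.00 CPM in shFgfr1op and 11.7, 11.1 and 14.3 CPM in scramble (-1.43 ± 0.12, edgeR adjusted p = 7.89e-14). IFIT1 was at 2.99, 3.11 and 2.42 CPM and 6.46, 6.60 and 8.98 CPM (-1.38 ± 0.15, 2.73e-10). In both genes every hairpin library lay below every scramble library by a wide gap. IFIT2, a partner of these proteins, was at 1.23, 1.98 and 1.54 and 2.49, 2.25 and 3.40 CPM (-0.78 ± 0.22, 0.00448) and lost its call without scramble 3 (adjusted p = 0.0803). These are human counterparts of the Ifit1 and Ifit3 genes whose promoters are printed above; human promoters were not analysed here.

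The 2 OAS genes that could be tested were lower as well. OAS1 was at 5.75, 4.94 and 5.65 CPM in shFgfr1op and 8.52, 8.13 and 8.74 CPM in scramble (-0.63 ± 0.12, edgeR adjusted p = 2.19e-05), and OAS3 at 49.7, 49.9 and 44.8 and 54.3, 58.7 and 58.0 CPM (-0.25 ± 0.051, 1.24e-04). The members grouped as ISG15 system and ubiquitin ligases split, and the role given above for Herc6 is that in mice. ISG15 was lower, at 13.9, 15.0 and 14.8 against 18.2, 18.1 and 19.9 CPM (-0.36 ± 0.078, 1.93e-04), and TRIM25 slightly so (-0.13 ± 0.038, 0.00418). HERC6 was higher, at 4.65, 5.02 and 4.91 against 2.92, 3.31 and 2.99 CPM (0.66 ± 0.15, edgeR adjusted p = 6.38e-04). USP18 was higher too, at 4.36, 3.80 and 3.23 against 2.60, 2.69 and 2.56 CPM (0.53 ± 0.17, 0.0139). Without shFgfr1op 1, its highest library, USP18 did not pass (adjusted p = 0.112) and HERC6 was the 1 member higher.

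PARP14, PARP9 and DTX3L were all lower. PARP14 was at 45.0, 50.7 and 50.7 CPM in shFgfr1op and 66.1, 63.4 and 67.1 CPM in scramble (-0.42 ± 0.049, edgeR adjusted p = 1.65e-09). DTX3L had -0.32 ± 0.051 (2.40e-06) and PARP9 -0.37 ± 0.062 (3.68e-06). EPSTI1, an interferon-induced protein of epithelium and stroma, was at 36.4, 33.4 and 35.4 CPM against 53.4, 52.3 and 52.7 CPM (-0.59 ± 0.052, 8.30e-13). LGALS3BP (-0.25 ± 0.039) and IFI35 (-0.23 ± 0.075) were lower as well, and IFI35 lost its call without shFgfr1op 2 (adjusted p = 0.0992). MX2, an inhibitor of nuclear import of viral genomes, was low in level, at 0.262, 0.185 and 0.678 CPM against 0.643, 1.02 and 0.976 CPM, and overlapped (-1.20 ± 0.42, edgeR adjusted p = 0.0238). It passed in 2 of 6 fits without 1 library and not in DESeq2 (0.0733).

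Of the transcription factors only IRF1 passed in Caco-2. It was at 12.8, 12.3 and 13.3 CPM in shFgfr1op and 19.6, 16.7 and 18.0 CPM in scramble, without overlap (-0.50 ± 0.082, edgeR adjusted p = 3.06e-06). IRF7 (0.09 ± 0.062), IRF9 (-0.10 ± 0.19) and STAT2 (-0.02 ± 0.045) did not pass. None of the 3 sensors tested passed: DDX58 had 0.14 ± 0.10, IFIH1 -0.29 ± 0.18 and DHX58 0.50 ± 0.45. The membrane proteins IFITM3 (0.37 ± 0.22), IFITM1 (-0.61 ± 0.44) and BST2 (0.09 ± 0.24) did not pass, at means of at most 2.22 CPM.

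Irf1, Parp9 and Dtx3l were lower both in KO crypts and in hairpin Caco-2 cells. They are 3 of the 3 members lower in crypts and 3 of the 15 lower in Caco-2, which share no samples. In both systems 30 members were tested, and the overlap was not tested. The share of all genes lower in both was not counted. Parp9 and Dtx3l are neighbours in the mouse that share 9.40% of the exon bases of Parp9 and 8.0% of those of Dtx3l. Their calls may therefore not be fully separate. Irf1 had -0.83 ± 0.18 in crypts, -0.50 ± 0.082 in Caco-2 and 0.22 ± 0.083 in spheroids. Of the higher members none was shared, since OAS2 and RSAD2 were too low to test in Caco-2 and IRF7 did not pass there.

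**Figure D5:**
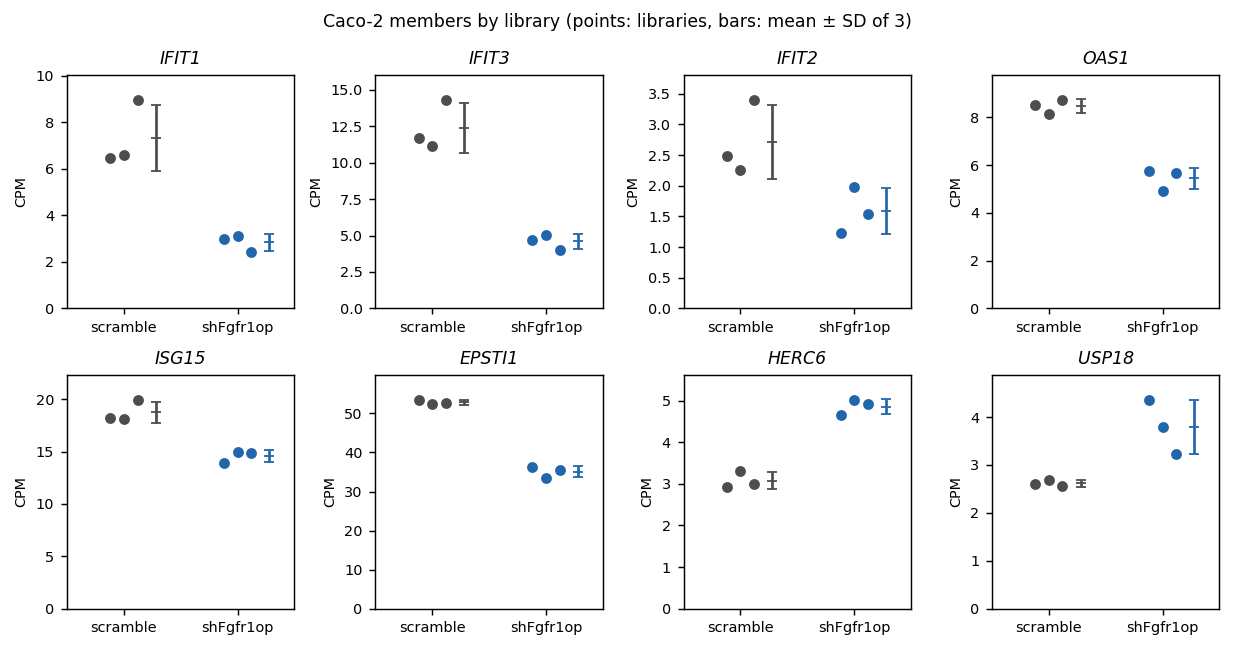
CPM of 8 members in each Caco-2 library (points) with the mean and SD of 3 libraries beside them, from 0. The IFIT genes, OAS1, ISG15 and EPSTI1 are lower in shFgfr1op without overlap, and HERC6 and USP18 are higher.

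In the rest of the pathway 3 of 44 genes tested in Caco-2 were higher and 12 lower. With 31.9% of all genes called, 15.7% higher and 16.2% lower, the count called is near the background. Of the receptors, IFNAR2, a chain of the type I receptor, was lower (-0.45 ± 0.091, edgeR adjusted p = 1.34e-04), as were IFNGR1 (-0.20 ± 0.055) and IFNLR1 (-0.26 ± 0.091), while IFNGR2 was higher (0.18 ± 0.059). Among kinases and STATs, JAK1 (-0.28 ± 0.038) and the feedback inhibitor SOCS3 (-0.22 ± 0.079) were lower and STAT3 was higher (0.28 ± 0.036). IRF8, TRAF3, MYD88 and IRF2 were lower by -0.27, -0.28, -0.23 and -0.27 as log2 fold changes. Of 18 other interferon-stimulated genes, 1 was higher, the helicase HELZ2 (0.17 ± 0.037), and 2 lower, PARP12 (-0.33 ± 0.073) and the immunoproteasome subunit PSMB9 (-1.61 ± 0.57). IFNL3, of the type III interferons, was the 1 interferon gene tested, at 0.619 ± 0.314 CPM in the 3 shFgfr1op and 0.602 ± 0.179 CPM in the 3 scramble libraries, and it did not pass.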

How the data were processed

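RNA was sequenced in 26 libraries: 8 of mouse spheroids, 12 of mouse crypt preparations and 6 of the human line Caco-2. The authors deposited gene count tables, 1 for each system. Per the submitters' processing notes STAR, DESeq2 and the mm10 genome were used. How reads were assigned to genes and strands, and the build behind the Caco-2 table, are not given in the sources used here. There were 40757 entries in each mouse table and 55209 in the human one, of which 276 and 116 were identical repeats of a gene and were removed.

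Columns were matched to samples by the names in their headers. The crypt headers do not give the day. In R 4.3.3, counts went to edgeR 4.0.16 with its filter on low counts, trimmed-mean scaling (TMM) and the robust quasi-likelihood test, fitted on all genes of a table with Benjamini-Hochberg adjustment and an adjusted p threshold of 0.05. The CPM shown are on the TMM-scaled library sizes. Both mouse tables were joined for the difference of KO effects and for WT crypts against WT spheroids. Depth was 44152608 to 67630241 counts per spheroid library, 48068740 to 103352863 per crypt library and 37281821 to 50965004 per Caco-2 library. The fit was tested on simulated data.

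Alternatives were DESeq2 1.42.0 size factors and test, limma 3.58.1 voom with quality weights, other filters, a replicate block, a fold threshold and leaving out each library. The members and all gene lists were chosen with earlier results of these data known. Any member may be named. By plan, values in every sample go to members called, at most 10 by smallest p. Where fewer than 3 were called they go to the 3 of smallest p, and also to members that head these in another comparison. The plan was not kept throughout. Pooled crypt calls are given mainly as ranges with medians, and WT crypts against WT spheroids as means with SD. In Caco-2 LGALS3BP, DTX3L and PARP9 have fold changes only, while members of larger p, such as MX2, have values in every library. Of each pathway list at most 5 called genes are named by smallest p. Further genes, such as Isg15, Oas3 and Ifitm1 in crypts, were given values after these were seen. Levels per kilobase divide by the merged exon length in GENCODE M21. Correlations between same-numbered spheroid or Caco-2 libraries were at most 0.10, so the numbers were not used to pair them. The members as a set were nevertheless highest in library 1 of both spheroid groups. Their median log2 deviation was 0.59 in KO 1 and 0.32 in WT 1.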

Additional observations from a re-analysis of the deposited data

Results flagged for a closer look

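Within groups of 4 to 6 libraries, the highest or lowest library stood apart from the others in 9 of 154 checks, and chance alone flags about 1 in 20. In the spheroid KO group library 1 was far above the others for Dhx58 (4.32 CPM), Ifit3 (8.60 CPM), Cmpk2 (8.70 CPM) and Xaf1 (4.28 CPM). In the spheroid WT group library 1 was flagged as highest for Zbp1 (0.645 CPM, the others at most 0.353). It was flagged by smaller relative gaps for Dtx3l (31.0 CPM, the others at most 27.4) and Lgals3bp (412 CPM, the others at most 342). In crypts, KO column 4 was low for Oas2 (0.519 CPM) and WT column 1 high for Ifi35 (114 CPM).

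The KO effect differed between crypts and spheroids for Irf1 (log2 difference -1.10). Between crypt columns 4 to 6 and 1 to 3, a division made after the data were seen, the KO effect differed on the log2 scale for Ifit1 (-2.76), Ifit3 (-2.29), Oas3 (-1.43), Oasl2 (-1.77), Herc6 (-2.33), Dtx3l (-1.08), Ifitm3 (-2.87), Cmpk2 (-2.91), Rtp4 (-1.69) and Ifi27 (-1.68). Each came from an interaction term in edgeR with an adjusted p below 0.05, which for the column division only describes the split. Leaving out single libraries was not run for the column division.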

How the results depend on the processing

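In spheroids the number of members higher in KO was 0 in edgeR and 1, Parp14, with no filter on low counts, with voom and with DESeq2. Leaving out 1 library gave 0 higher and 0 lower, and a median log2 fold change between -0.07 and 0.33. In crypts the number lower was 3 in edgeR, 12 in voom, 5 in DESeq2 and 0 with a log2 fold change of at least 1 as a further condition. Shares of all genes called by voom and DESeq2 were not counted in any comparison, so their counts have none beside them. The divisions of crypt columns were added after seeing the data: columns 1 to 3 gave 0 higher and 0 lower, columns 4 to 6 gave 16 lower with a median of -0.70, the lower run of header numbers gave 0 and 0, the higher run 16 lower with a median of -0.57, and the range as a covariate 5 higher and 6 lower. These fits have fewer samples, except the last. Leaving out 1 crypt column gave 2 to 4 higher, 2 to 5 lower and a median from -0.35 to 0.02.

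In Caco-2 the fold condition left 0 higher and 3 lower, and leaving out 1 library gave 1 to 2 higher, 13 to 15 lower and a median from -0.29 to -0.23. For crypt minus spheroid effects DESeq2 called 3 lower, and leaving out 1 library gave 0 higher, 1 to 3 lower and a median from -0.67 to -0.06. For WT crypts against WT spheroids leaving out 1 library gave 29 to 32 higher, 3 lower and a median from 2.15 to 2.62. None of the results run changed direction with a call under any alternative run.

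With the replicate block, spheroids gave 0 higher and 0 lower with a median of 0.13, and Caco-2 gave 2 higher and 15 lower with a median of -0.25, so the block changed no count. A library correlated best with its own number in 0 of 4 spheroid pairs and 2 of 3 Caco-2 pairs. No paired analysis was possible for crypts because their columns carry no number shared with the labels. MX2 in Caco-2 rests on few counts, 7 to 51 per library.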
